A study of Homo sapiens with 4 samples.

Results

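The skipped exons described here belong to the genes of CCR4-NOT, the main complex that shortens the poly(A) tails of messenger RNAs in human cells. The genes looked for were the scaffold CNOT1, the subunits CNOT2, CNOT3 and CNOT10, the ubiquitin ligase CNOT4, and the deadenylases CNOT6, CNOT6L, CNOT7 and CNOT8. An event is an exon together with its left and right neighbours, and those averaging 20 or more junction reads over the 4 libraries were kept. This gave 85 events on 67 exons of 8 genes, of 54503 such events in 9999 genes. CNOT6L had no event among those analysed here. The genes were chosen by the inclusion levels of 1 CNOT1 exon of 122 nt, which differed between the compared sets of libraries, so the values of that exon are given as a description, with no test, and counts of called events are given with and without it. The other 14 of the 99 events of these genes had fewer reads. The deepest of them, in CNOT6 and CNOT2, had means of 16.75 and 16.25 reads, and the shallowest events kept, both in CNOT2, had 41.5 and 48 reads.

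The study used 293T cells, a human embryonic kidney line. Per the labels, 2 libraries came from cells transfected with 70 nM of a MOE gapmer antisense oligonucleotide (ASO) against Snord89, a small nucleolar RNA (snoRNA) of the C/D box class, and 2 from cells marked as untreated; a gapmer directs cleavage of the RNA it pairs with. Both groups carry the same protocol text, with medium changed at 24 hours and RNA taken at 48 hours, no control ASO is named, and the labels call the replicates biological. The comparison table names only set 1 and set 2, of 2 libraries each, and no label says which of them received the ASO, so every difference is set 1 minus set 2. Library 1 and library 2 of a set are names only. Of the markers looked for in this line, VIM, DNMT3B and PAX2 had junction reads in every library, NES had no event, and of the markers of other cells only GFAP had an event, with 0 to 8 reads; genes without a skipped exon event could not be checked.

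In CCR4-NOT, CNOT1 is the long platform on which the other subunits assemble. CNOT2 and CNOT3 form the NOT module near its end, CNOT10 binds near its start together with CNOT11, and CNOT7 or CNOT8 bridges to CNOT6 or CNOT6L. These nucleases remove adenosines from the tail one after another, and the complex is brought to its targets by microRNA-bound proteins, PUM proteins and other RNA-binding proteins. CNOT4 carries a RING domain and is less tightly bound to the human complex. CNOT1 is also a snoRNA host: in GENCODE release 29 the H/ACA snoRNA genes SNORA46 and SNORA50A lie within it on the same strand.

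In most of the tested events of these genes, the exon was included in nearly every transcript. The mean inclusion level, the length-corrected fraction of junction reads that include the exon, was above 0.95 for 61 events (71.8%, against 66.1% of all tested events). It was under 0.05 for 13 events (15.3%, against 9.3%) and in between for 11 (12.9%, against 24.6%). Skipping of a coding exon changes the protein that is made, so 3 coding exons with a measurable share of skipping are printed here, from GENCODE release 29 transcripts matched by the spacing of the exons. To these is added a CNOT2 exon with a choice of acceptor sites, in which the capitals mark the 24 bases that only the 80-nt form holds and the 56-nt form lacks. The 36-nt CNOT10 exon and this CNOT2 exon were picked after their values were seen.
CNOT4, 213 nt, minus strand of chromosome 7, 135048606 to 135048818: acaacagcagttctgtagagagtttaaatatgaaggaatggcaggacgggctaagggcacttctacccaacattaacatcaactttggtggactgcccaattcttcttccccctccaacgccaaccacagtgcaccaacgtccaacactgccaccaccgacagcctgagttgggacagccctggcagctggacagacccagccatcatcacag
CNOT10, 81 nt, plus strand of chromosome 3, 32778902 to 32778982: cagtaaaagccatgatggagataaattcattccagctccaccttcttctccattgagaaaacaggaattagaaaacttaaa
CNOT10, 36 nt, plus strand of chromosome 3, 32805947 to 32805982: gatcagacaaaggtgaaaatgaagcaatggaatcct
CNOT2, 80 nt, plus strand of chromosome 12, 70726547 to 70726626: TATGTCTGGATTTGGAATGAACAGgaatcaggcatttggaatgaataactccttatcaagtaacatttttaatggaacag
Positions are those of the table, in hg19 (the build named in the submitters' processing notes), with 1-based starts; the sequences are those of the GRCh38 transcripts.

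The 213-nt exon of CNOT4 (ENSG00000080802.14) was the coding exon closest to equal use of both forms. Its length is a whole number of codons, 71, so skipping keeps the reading frame. In set 1 it was included at 0.512 (95% Wilson interval of the junction reads 0.436 to 0.589) and 0.581 (0.496 to 0.661). In set 2 it was at 0.442 (0.356 to 0.531) and 0.722 (0.639 to 0.792), so the libraries of set 2 lay on either side of set 1. The difference was -0.035 at a false discovery rate (FDR) of 1, both from the authors' deposited table. The spread within set 2, whose intervals do not touch, was larger than the difference between the sets.

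The CNOT10 exons shown (ENSG00000182973.14) are also whole numbers of codons, 27 and 12, and were skipped in a small share of transcripts. For the 81-nt exon between its nearest neighbours, inclusion was 0.911 and 0.930 in set 1 and 0.964 and 0.909 in set 2, from 299 to 575 reads. For the 36-nt exon it was 0.949 and 0.967 against 0.946 and 0.978, from 388 to 498 reads. In each, the sets overlapped, and the authors' deposited table gives an FDR of 1. The antisense gene CNOT10-AS1 spans the 81-nt exon, and the strandedness of the libraries is not given. The levels rest on reads across junctions at the splice sites of the CNOT10 exons. Whether any of these reads came from the antisense gene was not tested. In CNOT8, which encodes a deadenylase, the 162-nt coding exon was included at 0.943, 0.935, 0.963 and 0.932 in the 4 libraries, again with overlapping sets and FDR 1 by the authors' deposited table. The 3 coding exons of these genes with a mean inclusion level between 0.05 and 0.95 were thus those of CNOT4, CNOT10 (81 nt) and CNOT8, and all 3 keep the frame, where 49.0% of such exons do over all tested genes and 46.3% of the near-constitutive coding exons of these genes do.

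The CNOT2 exon with the capitals (ENSG00000111596.7; CNOT2 is a structural subunit) was close to full inclusion in both forms. Between its nearest neighbours, the event of the 80-nt form had 296, 246, 165 and 146 junction reads in the 4 libraries. That of the 56-nt form had 57, 54, 40 and 15. The forms share the donor and the junction to the downstream exon, so neither count is of 1 form alone. The split of reads between the forms was not measured. The event of the longer form had more reads in every library. Its inclusion level between these neighbours was at least 0.991, and that of the 56-nt form at least 0.966. Each of these levels sets 1 form against skipping only, not against the other form.

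Many exons with low or variable inclusion lay ahead of the coding sequence. Of the 24 events with a mean inclusion level of at most 0.95, 9 events on 8 exons lay upstream of the start codon that most coding transcripts of their gene use in release 29, and these are called leader exons here: 4 events in CNOT1, 2 in CNOT6, 2 in CNOT8 and 1 in CNOT7. Of these 9, 5 had a mean inclusion level between 0.05 and 0.95 and 4 were below 0.05. These 9 are all the leader events among the 85 tested here, and over all genes 5117 of 54503 tested events were leader events. Above 0.95 were 0 of the 9, against 31.6% of the 5117. The 4 events of CNOT1 lie in 1 leader and are not separate cases.

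**Figure D1:**
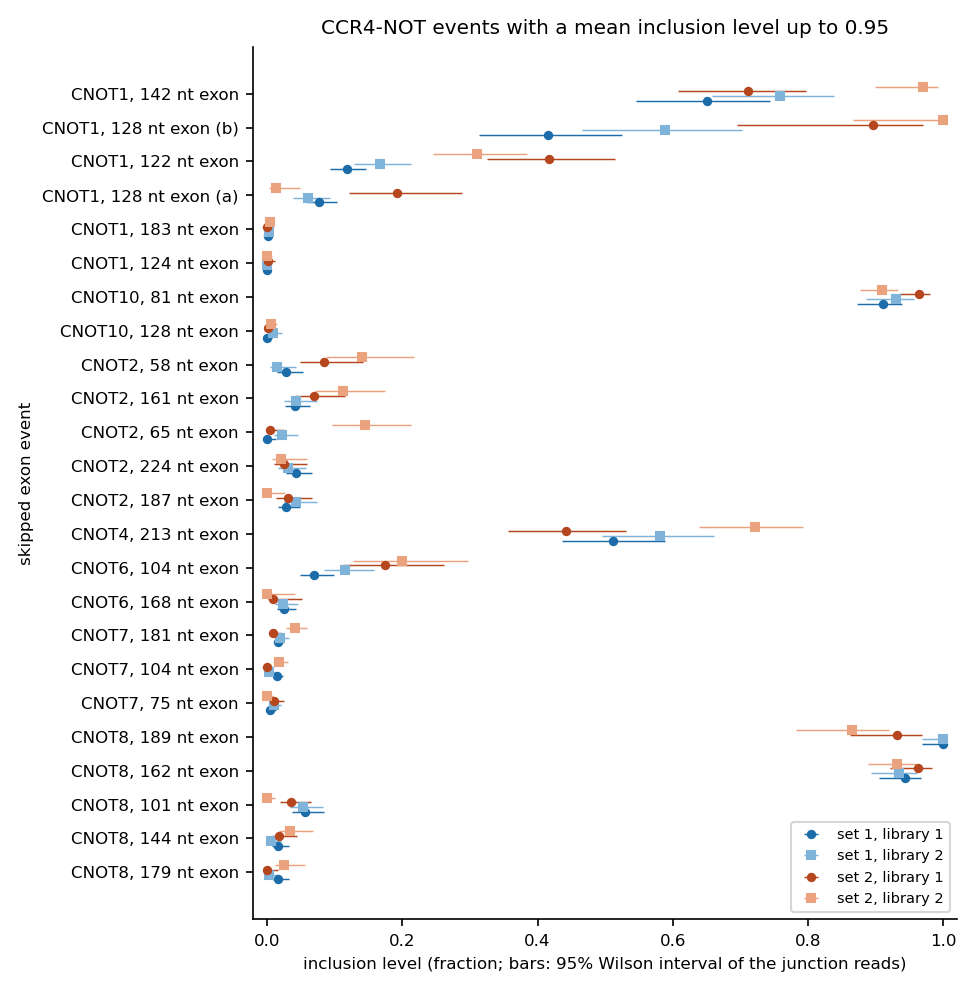
Inclusion level (x axis, fraction) of the 24 CCR4-NOT events with a mean of at most 0.95 (y axis, by gene and exon length), with 1 point per library and bars for the 95% Wilson interval of the junction reads; (a) and (b) are events of 1 CNOT1 exon with different neighbours. The 122-nt CNOT1 exon lies between 0.118 and 0.167 in set 1 and between 0.311 and 0.417 in set 2, and CNOT4 spreads most within set 2.

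CNOT1 (ENSG00000125107.12, minus strand of chromosome 16) has a leader with an exon of 122 nt at 58658577 to 58658698, the one by which the genes were chosen. In this event it lies 4933 nt after its upstream neighbour and 25161 nt before its downstream neighbour, in the untranslated leader of protein-coding transcripts. In set 1 it was included at 0.118 (95% interval 0.0939 to 0.147) and 0.167 (0.129 to 0.213). In set 2 it stood at 0.417 (0.325 to 0.515) and 0.311 (0.245 to 0.385). Both libraries of set 2 were above both of set 1. The forms behaved differently in reads: the skipping junction had 300 and 159 reads in set 1 and 43 and 78 in set 2, while the inclusion junctions had 73 and 58 against 56 and 64. The lower level in set 1 thus goes with more skipping reads there, at like numbers of inclusion reads. The inclusion junction toward the upstream neighbour is shared with a 142-nt form of the exon, described below. The inclusion reads and levels are therefore not those of the 122-nt form alone.

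The coding part of CNOT1 had fewer reads in set 2 too. The first coding exon measured, at 58610367 to 58610486, had 947 and 602 reads in set 1 and 151 and 219 in set 2. Per 100 of these reads, skipping of the 122-nt exon came to 31.7 and 26.4 in set 1 and 28.5 and 35.6 in set 2, and these overlapped. Inclusion came to 7.71 and 9.63 against 37.1 and 29.2 and did not overlap. On this scale the sets are apart in the including form and overlap in the skipping form, while in raw reads they are apart in the skipping form. This depends on the exon taken as the scale, whose reads in set 2 over set 1 had a ratio of 0.239. The last coding exon measured, at 58565862 to 58565979, had 1210 and 1051 reads against 939 and 951, a ratio of 0.836. Scaled to that exon, the sets would be apart in the skipping form and overlap in the including form, as in raw reads.

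**Figure D2:**
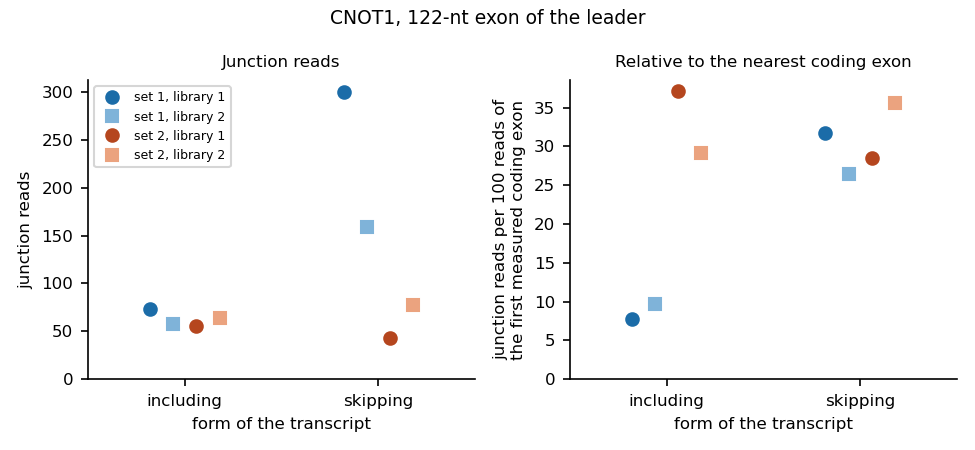
Junction reads of the CNOT1 122-nt exon by form (x axis), as raw reads (left, y axis from 0) and per 100 reads of the first measured coding exon (right, y axis from 0), with 1 point per library and no error bars. In raw reads the sets differ in the skipping form, at 300 and 159 against 43 and 78. On the right they differ in the including form, at 7.71 and 9.63 against 37.1 and 29.2. The right panel depends on the exon taken as the scale. In both panels the including reads hold a junction shared with the 142-nt form of the exon.

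Other leader forms of CNOT1 overlap this exon or lie beside it, and are not taken as independent of it. Those measured against the exon starting at 58663632 share a junction with it. A 128-nt exon at 58657186 to 58657313 was measured against 2 different first neighbours. With the 142-nt form of the upstream exon as its neighbour, it was at 0.416 (95% interval 0.314 to 0.525) and 0.589 (0.466 to 0.702) in set 1. Set 2 had 0.896 (0.695 to 0.970) and 1 (0.866 to 1), and the sets did not overlap. This rests on 79, 77, 34 and 46 reads, with 34 and 21 skipping reads against 2 and 0. The difference was -0.446 at FDR 1.2e-06, both from the authors' deposited table. With the exon starting at 58663632 as its neighbour, which is also the upstream neighbour of the 122-nt event, the same 128-nt exon was at 0.0777 and 0.0604 against 0.192 and 0.0136, and the sets overlapped (FDR 1 in the authors' deposited table). These levels use the same skipping reads as the 122-nt exon. The 142-nt form at 58658557 to 58658698, which differs from the 122-nt form by 20 nt at its donor end and was picked after its values were seen, was at 0.651 and 0.759 against 0.711 and 0.970. Its FDR in the authors' deposited table was 0.22, and the sets overlapped.

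CNOT6, a nuclease subunit of the exonuclease-endonuclease-phosphatase type, has its leader exons between 179921763 and 179956275. The 104-nt exon at 179922652 to 179922755 on chromosome 5 (ENSG00000113300.7), known in release 29 only from a noncoding transcript, was at 0.0702 (95% interval 0.0492 to 0.0992) and 0.116 (0.0843 to 0.158) in set 1. In set 2 it was at 0.174 (0.112 to 0.262) and 0.199 (0.128 to 0.297), above both libraries of set 1. The difference was -0.093 at FDR 0.0351, both from the authors' deposited table. As in CNOT1, raw skipping reads differed most, at 234 and 166 against 53 and 45. Inclusion reads were 30 and 37 against 19 and 19. The near-constitutive exons of CNOT6 also had fewer reads in set 2, with ratios of set 2 to set 1 between 0.25 and 0.351. The raw reads therefore do not set the skipping form apart from the lower reads of the whole gene. The other CNOT6 leader exon, of 168 nt, was included at 0.0250 or less in every library.

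CNOT2 has its low-inclusion exons after the exon that holds the most used start codon, so they are not counted as leader exons. Between 70672054 and 70704675 on chromosome 12, the exons of 58, 161, 187 and 224 nt skip by 1 shared junction, with 220, 143, 94 and 71 reads in the 4 libraries. The 58-nt exon at 70688017 to 70688074 was at 0.0286 (95% interval 0.0151 to 0.0536) and 0.0149 (0.00506 to 0.0429) against 0.0842 (0.0484 to 0.142) and 0.14 (0.0867 to 0.217), so the sets did not overlap. The difference was -0.09 at FDR 0.000483, both from the authors' deposited table. It has 9 and 3 inclusion reads against 12 and 16. The 161-nt exon at 70695485 to 70695645 was at 0.0414 and 0.0435 against 0.0693 and 0.113, at FDR 0.0892 by the authors' deposited table; from reads not corrected for form length its difference was -0.0845 in place of -0.0485, and without library 2 of set 2 it was -0.0269. The exons of 187 and 224 nt were at or below 0.0435 in every library and did not pass (FDR of 0.341 and 0.606 in the authors' deposited table). The 224-nt exon ends where the 58-nt exon does. On the exons of 187 and 224 nt, 2 further events averaged 16.25 and 10.25 reads, below the read minimum, and had an FDR under 0.05 in the authors' deposited table, with higher inclusion in set 1 (differences of 0.531 and 0.51).

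A 65-nt CNOT2 exon at 70731536 to 70731600, from a noncoding transcript, was at 0 and 0.0227 in set 1 and at 0.00459 and 0.145 in set 2. The sets overlapped, and 22 of its 30 inclusion reads came from library 2 of set 2. The difference was -0.064 at FDR 0.00296, both from the authors' deposited table. Without that library the difference was 0.00675, in the other direction, and without library 1 of set 2 it was -0.134.

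CNOT8 and CNOT7, deadenylases of the DEDD type that are close relatives and replace each other in the complex, had leader exons that were hardly used. The CNOT8 exons of 144 and 179 nt (ENSG00000155508.9, chromosome 5) were included at 0.0348 or less in every library, and the CNOT7 leader exon of 75 nt (chromosome 8) at 0.0108 or less. In CNOT8 the partly coding 189-nt exon at 154242767 to 154242955 was called with 1 of its upstream donor sites. With the donor at 154238361 its level was 1 (95% interval 0.968 to 1) and 1 (0.969 to 1) in set 1, while set 2 had 0.932 (0.862 to 0.968) and 0.865 (0.782 to 0.920), and the sets did not overlap. The skipping reads were 0 and 0 against 6 and 12. The difference was 0.101 at FDR 4.34e-05, both from the authors' deposited table; without library 2 of set 2 the difference was 0.0678, and from uncorrected reads 0.0537. With the donors at 154238328 and 154238376 and the same downstream exon there were skipping reads of 11 and 6 against 4 and 10, and of 4 and 1 against 0 and 0, and the FDR was 1 for both in the authors' deposited table. With this downstream exon, the donor at 154238361 was therefore the only one of the 3 with an FDR under 0.05. With the downstream exon at 154250221, the donor at 154238328 had skipping reads of 1 and 0 against 0 and 8. Its difference was 0.054 at FDR 0.0546 by the authors' deposited table, and that of the donor at 154238376 was -0.011. Events with the same downstream exon share the junction from the 189-nt exon to it. Their inclusion reads and levels are therefore not those of 1 donor alone. The difference between donors was not tested. A rare CNOT8 exon of 101 nt at 154247252 to 154247352 was at 0.0560 and 0.0533 against 0.0359 and 0, a difference of 0.037 at FDR 0.00855 by the authors' deposited table, and of 0.0590 from uncorrected reads and 0.0188 without library 2 of set 2.

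Exons that release 29 places only in transcripts marked for nonsense-mediated decay, the pathway that removes messengers with an early stop codon, were mostly skipped. There were 7 such events, described here, like the CNOT6 exons of 168 and 203 nt, after their values were seen. In 5 of them, the exons of 183 and 124 nt in CNOT1, 104 and 181 nt in CNOT7 and 128 nt in CNOT10, no library was above 0.0415. The most used was the 181-nt CNOT7 exon, with 0.0158 and 0.0197 in set 1 and 0.00904 and 0.0415 in set 2. The 124-nt CNOT1 exon had 1 inclusion read over the 4 libraries, against 650, 537, 265 and 286 reads that skipped it. The remaining 2 are forms of a CNOT2 coding exon with other splice sites, and their levels were close to full inclusion. Each shares 1 splice site and both neighbours with the 101-nt coding form, whose junction reads can count toward these levels. The levels therefore do not show how often the decay forms themselves were used. Of the 7, 0 were called, against 2.55% of such events over all genes, and by the authors' deposited table none had an FDR under 0.05.

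CNOT3, a structural subunit, had 2 events, both above 0.99 in every library. Of the pair, the 57-nt exon at 54650337 to 54650393 on chromosome 19 was at 0.996, 1, 1 and 1.

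Calls over all 85 events can be set beside those over the whole table, but nothing is read from the count, since the same comparison chose the genes. With an FDR under 0.05 in the authors' deposited table and an absolute difference of at least 0.1, 3 events were called (3.53%), against 2.71% of all tested events; without the exon that chose the genes there were 2 of 84 (2.38%). These are the CNOT1 exons of 122 and 128 nt, both lower in set 1 (1.37% of all tested events were called lower), and the 189-nt CNOT8 exon, higher in set 1 (1.34% called higher). The CNOT1 pair share the gene's leader, where 5.24% of events were called over all genes; the CNOT8 exon is neither a leader nor a decay-only exon, and of such exons 2.39% were called. With an FDR under 0.05 at any size of difference there were 7 events (8.24%, against 5.72%), 5 lower (2.68% of all tested events) and 2 higher in set 1, and 6 of 84 (7.14%) without the choosing exon. For 66 of the 85 events that FDR was 1. The median absolute difference was 0.00724, against 0.0114 over all tested events, and 71 of the 85 differed by less than 0.03. The sets did not overlap in 17 events (20%), against 22.8% of all tested events, and in 16 of 84 (19.0%) without the choosing exon.

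A test with the spread between libraries as its error called none of the events. In a quasi-binomial model of the inclusion and skipping reads, with dispersion moderated by limma toward a trend in read depth, 0 of the 85 events had an adjusted p-value under 0.05, and the smallest was 0.847. Leaving out the exon that chose the genes, 3 of the other 84 events (3.57%, against 2.57% of all tested events) had an unadjusted p under 0.05. These were the CNOT1 128-nt, CNOT2 58-nt and CNOT8 189-nt exons, of which the first shares the leader with the choosing exon. Over all 54503 events the count was also 0, as with limma on the log2 ratio of the forms. Tested on simulated data with the scatter of these libraries, the model had little power, so a count of 0 does not show that the sets are alike.

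Junction reads of 6 of the 8 genes were lower in set 2, and unevenly so. Per 1000000 junction reads of a library, CNOT6 had 116 and 82.2 in set 1 and 26.1 and 27.1 in set 2, a ratio of 0.268, and 4.65% of the 9999 genes had a lower one. CNOT1 had 296 and 226 against 118 and 124, a ratio of 0.464. CNOT2, CNOT4, CNOT7 and CNOT8 had ratios from 0.579 to 0.770. In these 6 genes both libraries of set 2 were below both of set 1, as in 60.9% of all genes, and the median ratio over all genes was 0.770. CNOT3 and CNOT10 overlapped between the sets, with ratios of 1.00 and 0.996. A junction can enter several events, so these are levels in the table; they were not tested, and in bulk RNA fewer expressing cells and less RNA per cell cannot be told apart.

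**Figure D3:**
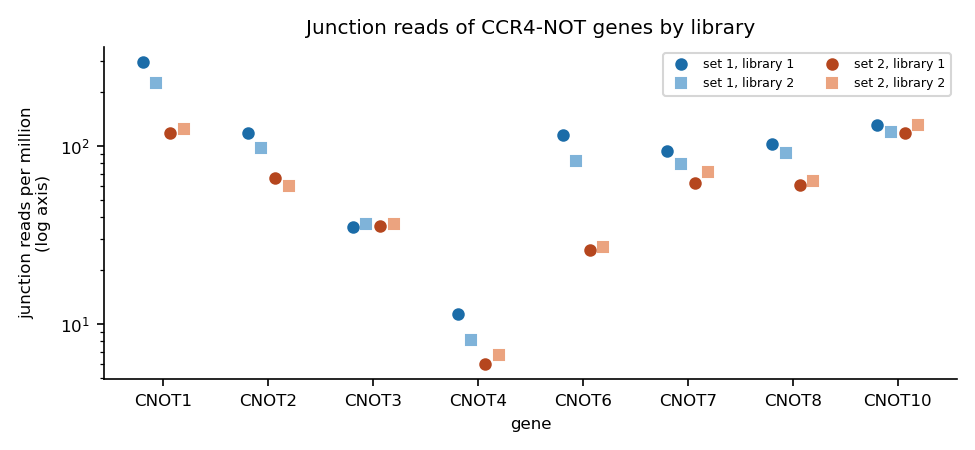
Junction reads per 1000000 of the library (y axis, log scale) of the 8 CCR4-NOT genes with events (x axis), with 1 point per library. CNOT6 shows the widest gap between the sets, at 116 and 82.2 against 26.1 and 27.1, and CNOT3 and CNOT10 overlap.

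In CNOT1 the deficit of set 2 depended on the place in the gene. Among its 9 near-constitutive exons, the ratio of set 2 to set 1 reads was 0.239 and 0.195 at the exons nearest the 5' end and 0.662 and 0.836 at those nearest the 3' end. At the last of these, at 58565862 to 58565979, the reads were 1210 and 1051 against 939 and 951. The log2 ratio of first to last exon was -0.35 and -0.80 in set 1 and -2.63 and -2.12 in set 2, a difference of -1.80. With events of any inclusion level the first exon is a leader exon, and the difference was 0.0322, in the other direction; this measure of depth along the gene was added after the data were seen. Among near-constitutive exons, such a shift of reads toward the 3' end in set 2 was seen across the table, with a median of -0.362 over 4637 genes (quartiles -0.731 and -0.0875) and a value below 0 in 82.4%. Of these genes, 3.77% were lower than CNOT1. CNOT2, CNOT10, CNOT8 and CNOT7 were at -1.14, -0.918, -0.611 and -0.484, and CNOT6 was at 0.229, with ratios between 0.25 and 0.351 along its whole measured length. RNA quality is not given in the sources used here, and the part of this shift in the leader exon levels was not tested.

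**Figure D4:**
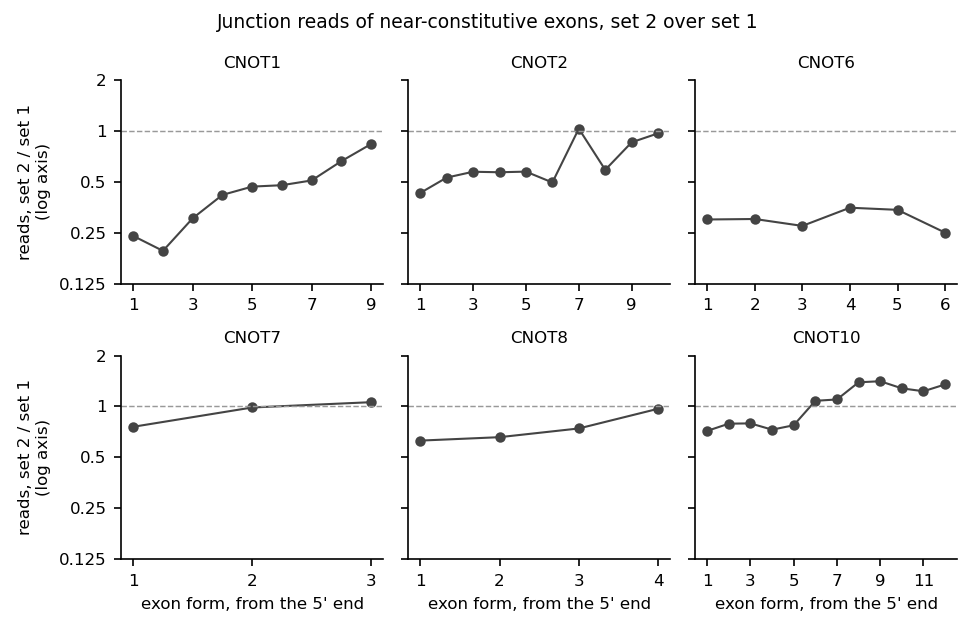
Ratio of junction reads, set 2 over set 1 (y axis, log scale, sums of 2 libraries), for the near-constitutive exon forms of 6 genes in order from the 5' end (x axis); the dashed line marks equal reads. CNOT1 climbs from 0.239 at its first exon to 0.836 at its last, and CNOT6 stays between 0.25 and 0.351.

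Near-constitutive exons less often had a skipping read in the libraries of set 2. Among the 61 near-constitutive events, a skipping read was seen in 33 and 38 events in the libraries of set 1 and in 21 and 10 in those of set 2. These 61 events also had fewer reads in set 2, with 16370 and 17797 against 27207 and 22632. Over all tested genes the shares were 58.8% and 55.5% against 48.4% and 23.9%, so library 2 of set 2 was also the lowest there. Unlike the 61 events, the near-constitutive events of all tested genes had more reads in each library of set 2 than in either of set 1. In the CCR4-NOT genes the skipping reads themselves came to 104, 92, 55 and 56, or 3.82, 4.07, 3.36 and 3.15 per 1000 reads of these events, so library 2 of set 2 had them in fewer events and not in smaller number than library 1. In CNOT6, 6 of 11 events did not overlap between the sets, against 22.8% of all tested events, and in 4 of them both libraries of set 2 had no skipping read. The deepest of those 4, the 203-nt exon at 179998230 to 179998432, was at 0.973 (95% interval 0.95 to 0.986) and 0.981 (0.953 to 0.993) against 1 (0.945 to 1) and 1 (0.948 to 1). Its intervals overlapped in all 4 libraries. The difference was -0.023 at FDR 0.367, both from the authors' deposited table. Intervals cover counting error only.

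Other genes of deadenylation and mRNA decay were called about as often as all genes. Of a list of 51 genes, 40 had 292 tested events; 9 events in 8 genes were called (3.08%, against 2.71%), 5 higher and 4 lower in set 1. The median absolute difference was 0.0138. The list was drawn up from textbook roles with earlier results known. CNOT9 (listed as RQCD1) and CNOT11, further subunits of the complex, had 14 events, of which 0 were called.

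Among the called events of that list, the 6 with most reads are named. DDX6, a helicase that CNOT1 binds, had an exon of 147 nt at 0.963 and 0.968 in set 1 and 0.908 and 0.819 in set 2, a difference of 0.102 at FDR 0.00679 by the authors' deposited table. PUM2, an RNA-binding protein that recruits the complex, had a leader exon of 97 nt at 0.113 and 0.155 against 0 and 0, the last from 17 and 44 reads (0.134 at FDR 6.02e-05, authors' deposited table). TNRC6C, a microRNA effector, had a coding exon of 117 nt at 0.528 and 0.495 against 0.289 and 0.224 (0.255 at FDR 0.00212, authors' deposited table). In these 3 genes the sets did not overlap, with set 1 higher.

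XRN1, the exonuclease that degrades decapped messengers, had a coding exon of 39 nt at 0.0658 and 0.0948 against 0.361 and 0.416, the last from 12 and 19 reads (-0.308 at FDR 0.00192, authors' deposited table). PAN3, a subunit of the other main deadenylase, had a coding exon of 148 nt at 0.857 and 0.883 against 1 and 1, the last from 9 and 22 reads (-0.13 at FDR 0.0128, authors' deposited table). EDC3, a decapping factor, had a leader exon of 89 nt called in both directions: between 1 pair of neighbours it was at 0.909 and 0.984 against 0.834 and 0.780 (0.14 at FDR 0.044, authors' deposited table), and between another pair the difference was -0.233. By the quasi-binomial model none of the 292 events had an adjusted p-value under 0.05, 9 had an unadjusted p under 0.05, and the smallest adjusted p-value was 0.847.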

How the data were processed

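Poly(A) RNA was sequenced as pairs of 150 bases. The submitters' processing notes name cutadapt, STAR and hg19; versions and settings, the rMATS version and the annotation are not given in the sources used here. Per the file headers, the 1 deposited table has the rMATS layout for skipped exons on junction reads. It gives read counts and inclusion levels (a fraction) for 2 libraries in a cell, the p-value and FDR of the authors' test, and the authors' inclusion difference, a score from -1 to 1 (set 1 minus set 2). Levels were recomputed from the deposited counts and form lengths, and differences agree within 0.0014.

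Summed over events, junction reads came to 38613055 and 39012939 for set 1, and to 42868431 and 43929373 for set 2. Of all tested events, 97.2% matched GENCODE release 29 by exon spacing (84 of 85 here). Events needed a mean of 20 reads; calls needed an FDR under 0.05 and a difference of 0.1. The quasi-binomial model used limma 3.58.1 in R 4.3.3, with Benjamini-Hochberg adjustment over 54503 events. Its dispersion, never under 1, was moderated toward a trend in read depth over events of intermediate inclusion rather than over all events as planned, because the planned form, tested on simulated data with the measured scatter, recovered none of the changes. Log2 read ratios used a pseudocount of 0.5.

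Named are the exon that chose the genes, member events with an FDR under 0.05, and in each gene the deepest event of intermediate inclusion, or else the least included; of the other decay genes, at most 6 called events with most reads. The genes and lists were chosen with earlier results of these data known. The labels call the replicates biological; if they were not separate cultures, p-values measure technical spread. Intervals are 95% Wilson intervals of junction reads and cover counting error only; removal of PCR copies is not given in the sources used here. Alternatives covered read minimum, thresholds, dispersion, length correction and each library left out.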

Additional observations from a re-analysis of the deposited data

How the results depend on the processing

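The calls follow the thresholds. The 3 called CCR4-NOT events, the exon that chose the genes among them, became 5 with a read minimum of 10, 5 with no read minimum, 6 at a difference of at least 0.05, and 1, the 122-nt CNOT1 exon, when each exon was counted by its deepest event. With each library left out they ranged from 2 to 3, with 2 without library 2 of set 2. For these calls with a library left out, here and over all tested events, the authors' FDR still came from all 4 libraries. It was not recomputed, so such ranges do not measure the stability of the calls. The 1477 calls over all tested events became 719 with a read minimum of 50, 2559 with no read minimum, 2499 at a difference of at least 0.05, 525 at 0.2 and 748 at an FDR under 0.01, and ranged from 1002 to 1418 with each library left out. The quasi-binomial count was 0 under every alternative run, including the planned prior from all events, which the depth trend had replaced after the data were seen.

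The difference of the CNOT1 122-nt exon, -0.222, ranged from -0.168 to -0.275 with each library left out. Over 13 named events, 6 of 78 recomputed differences changed sign, in 5 events and each with 1 library left out: the CNOT4 213-nt exon (0.105 in place of -0.0352), CNOT10 81-nt (0.0113 in place of -0.016), CNOT8 162-nt (0.00658 in place of -0.00849), CNOT7 75-nt (-0.000727 and -0.00353 in place of 0.00188) and CNOT2 65-nt. Of these, CNOT2 alone had an FDR under 0.05, and its -0.0637 ranged from -0.134 to 0.00675 with each library left out, the latter without library 2 of set 2. A further 8 differences moved by more than the spread between libraries and kept their sign or came to 0. The 5' to 3' shift of CNOT1, -1.80, ranged from -1.54 to -2.05 with each library left out. It was 0.0322 with events of any inclusion level; the measure and its alternatives were added after the data were seen. No paired analysis was possible because the table's columns carry no replicate numbers.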
